A study of Arabidopsis thaliana with 9 samples.

Results

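Transposable elements are stretches of DNA that can move or copy themselves within a genome, and in Arabidopsis most of them are kept silent by DNA methylation, by methylation of histone H3 and by small RNAs. Their transcripts are therefore usually scarce, and the elements that do give many reads in a seedling form a small group. Arabidopsis elements carry systematic identifiers whose first digit names the chromosome and whose number runs along it. The elements described here are those with the most reads in light-grown wild-type seedlings and lines mutant for or overexpressing MYB30, a MYB-family transcription factor. They were chosen by their level, as the elements with an average log2 CPM (reads on an element scaled to all reads on elements) of 7 or more in each of the 3 deposited element tables. Of 31189 elements listed, 9208 had reads in at least 1 table and 722 met this rule. The level that chose them is given as a description throughout. The fold changes and p-values were not read by the rule, but the average level of a table holds both of its genotypes, so an element that is low in 1 genotype entered only through the genotypes where it is high. Of the 722 elements, 654 had an implied level of 7 or more in each genotype, and 68 lay below it in at least 1 (19 in Col, 28 in the mutant and 26 in MYB30-OE). The differences of named elements that involve a genotype below that level are given as a description, with no p-value.

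RNA of whole Arabidopsis thaliana seedlings (ecotype Col) was sequenced at an age of 4 days, after growth on MS plates under continuous white light. The wild type (Col), a mutant of MYB30 (myb30) and an overexpressor of the same gene (MYB30-OE) each gave 3 libraries, 9 in all. The sources used here do not give the allele of the mutant, the promoter that drives MYB30 in the overexpressor or the number of independent lines. Nothing in the labels ties the libraries to separate cultures, so the p-values cover the spread among these libraries alone, which may be technical. In whole seedlings, fewer cells of a type and less RNA per cell cannot be told apart.

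The authors deposited 1 comparison per pair of genotypes, each with the fold change of every element on the log2 scale, its average level and its p-value. These tables hold no values of single libraries. No spread per genotype can therefore be given, and each statement of error rests on the deposited p-values after Benjamini-Hochberg adjustment over all elements with reads. An element is said to have passed at an adjusted p under 0.05. The tables imply an average of about 292959 element reads per library in Col, 306619 in the mutant and 275735 in MYB30-OE. Those totals were 0.864%, 0.840% and 0.852% of the implied gene reads of the same genotypes. MYB30 itself (AT3G28910) had a log2 fold change of -2.82 in myb30 and of 4.28 in MYB30-OE, each against Col, and its direction was used to read the sign of the deposited fold changes.

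The tables give no positions, families or sequences of the elements, and the gene annotation used here holds none of their identifiers. Reads from a gene that contains an element cannot be told apart from the element's own transcript, and the sources used here do not say how reads that match several copies were divided. A value of a single copy of a repeated family is uncertain for that reason. Levels are also not per length, so the order of levels below is an order of read numbers.

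Well expressed elements were fewest towards the middle of the numbered series of chromosomes 1, 3 and 5, and in the first 7 of 10 parts of chromosomes 2 and 4. Chromosome 5 had the most with 188 elements, followed by chromosome 1 with 178, chromosome 3 with 156, chromosome 2 with 105 and chromosome 4 with 95. As a share of the elements listed, this was 2.82% on chromosome 5, 2.49% on chromosome 1, 2.41% on chromosome 3, 1.91% on chromosome 4 and 1.77% on chromosome 2, against 2.31% over all chromosomes. Elements with reads at any level made up between 28.2% of those listed on chromosome 3 and 30.8% of those on chromosome 1.

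Within each chromosome the identifiers were placed in order and cut into 10 parts of equal size. The first 2 and last 2 parts together held 506 well expressed elements, or 70.1% of them, which was 4.06% of the elements listed there. The middle 2 parts held 35, or 0.561% of those listed. Elements with reads at any level were also scarcer there, at 21.8% and 21.5% of those listed in the fifth and sixth parts against 38.5% in the first and 41.1% in the last. Of the elements with reads, 2.35% and 2.83% were well expressed in the fifth and sixth parts, and 14.9% and 12.6% in the first and the last. On chromosome 3 the first part alone held 65 well expressed elements. The fourth part of chromosome 3 and the fifth part of chromosome 1 held none. Chromosomes 1 and 5 had many at both ends, with 45 and 51 in the first part and 32 and 47 in the last. Chromosomes 2 and 4 differed at the start of the series, with 9 each in the first part against 28 and 29 in the last. These are counts over identifiers and not over base pairs, because no positions were used.

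**Figure D1:**
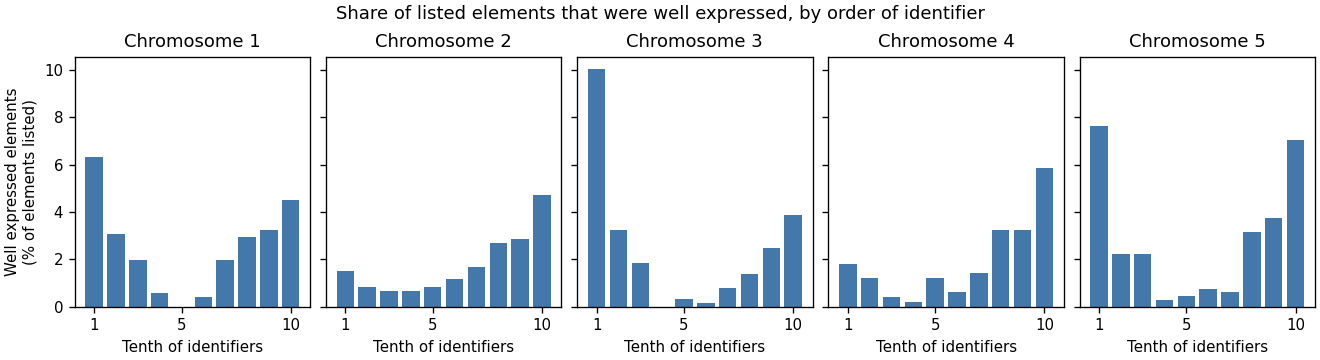
Each bar is the percentage of listed elements that were well expressed in 1 of 10 equal parts of the identifiers of a chromosome, in order of number. The bars dip in the middle of chromosomes 1, 3 and 5. On chromosomes 2 and 4 they start low (9 elements each in the first part). They are lower still in the fourth part (4 and 1 elements) and increase towards the end.

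Reads were concentrated in a small number of elements. The 722 elements held 93.2% of all implied element reads, and this share was 93.2% in Col, 93.2% in the mutant and 93.3% in MYB30-OE. The 10 highest held 29.9% of element reads, the 50 highest 49.6% and the 200 highest 74.7%. The average log2 CPM over the 3 tables ran from 7.02 to 16.29, with a median of 8.74. By level, 206 elements lay between 7 and 8, 336 between 8 and 10, 147 between 10 and 12, and 33 at 12 or more, and these 33 held 43.9% of element reads. The median element had about 357 implied reads over the 3 Col libraries, 396 over the myb30 libraries and 356 over the MYB30-OE libraries. A single element had under 10 implied reads in a genotype.

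At the edge of the level threshold, AT5TE55245 was the nearest element inside, with 7.001 as the lowest of its 3 average log2 CPM values, and AT3TE11175 was the nearest outside with 6.988. The first had implied levels of 139 CPM in Col, 129 in the mutant and 114 in MYB30-OE, and the second had 107, 132 and 138 CPM. A further 85 elements reached the threshold in only 1 or 2 of the 3 tables and are not included, so an element that was high in 1 genotype alone could fail the rule.

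The element with the most reads was AT3TE32730 on chromosome 3, with implied levels of 78119 CPM in Col, 76067 in the mutant and 85757 in MYB30-OE, or 8.0% of element reads. It passed in no comparison, with deposited log2 fold changes of -0.04 in myb30 against Col, 0.13 in MYB30-OE against Col and 0.18 in MYB30-OE against myb30. AT2TE18115, the highest on chromosome 2, had 65235 CPM in Col, 48335 in the mutant and 61554 in MYB30-OE. The mutant had the lowest of these levels, 1.35-fold below Col (log2 fold change -0.43, adjusted p = 1.43e-06), and MYB30-OE was 1.28-fold above the mutant (adjusted p = 2.05e-14). MYB30-OE against Col did not pass for that element (log2 fold change -0.08, adjusted p = 0.985).

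The highest elements of the other chromosomes lay lower. AT4TE59630 on chromosome 4 had 32936, 28635 and 29850 CPM in Col, myb30 and MYB30-OE, and passed in no comparison. AT5TE72200 on chromosome 5 had 12871, 10476 and 12974 CPM. Like the highest element of chromosome 2 it was lowest in the mutant, 1.23-fold below Col (adjusted p = 0.0022), and MYB30-OE was 1.25-fold above the mutant (adjusted p = 2.09e-04). AT1TE88825 on chromosome 1 had 10027, 7594 and 13099 CPM. It did not pass against Col in either line (log2 fold changes -0.40 and 0.39), whereas MYB30-OE was 1.74-fold above the mutant (adjusted p = 0.0025).

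Single elements weighed heavily on the totals of some chromosomes. The 105 well expressed elements of chromosome 2 held 25.1% of element reads, the highest share of the 5 chromosomes although it had fewer such elements than 3 of the others. Without AT2TE18115 that share was 19.2%, and without its 3 highest elements it was 13.6%. On chromosome 3 the share was 21.3%, and 13.3% without AT3TE32730. Chromosomes 1 and 5 depended less on a single element, with 15.9% and 17.5%, and 14.9% and 16.3% without the highest.

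The first comparison set the mutant against Col. Of the 722 well expressed elements 92 passed, with 54 higher and 38 lower in the mutant. Over all 7919 elements with reads in the authors' deposited table, 2.18% passed, 1.25% higher and 0.934% lower, against 12.7% of the well expressed ones. Among the other 7197 elements with reads 81 passed, or 1.13%. The share that passed increased with the level, as described further on, so a higher share among elements chosen for their level is not a result about these elements. Of the 92, 21 were at least 2-fold higher and 14 at least 2-fold lower. The smallest fold change that passed was 1.23-fold. Among the 654 elements at the level threshold in each genotype 77 passed, 47 higher and 30 lower, and 25 of them by at least 2-fold. The median log2 fold change of the 722 was 0.04, with an interquartile range from -0.22 to 0.29, and the median over all elements with reads was -0.06.

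AT3TE58655 on chromosome 3 had the largest positive fold change in the mutant. Its implied level was 2.27 CPM in Col, 667 CPM in the mutant and 869 CPM in MYB30-OE. Col stood apart from both altered lines, with about 2 implied reads over its libraries against 613 in the mutant. The implied ratio of levels was 293 and the deposited log2 fold change was 7.95. That ratio rests on the few Col reads, so its size is uncertain and it is given as a description. The element met the level rule only through the mutant and MYB30-OE. AT2TE13060 on chromosome 2 had 29.5 CPM in Col, 707 in the mutant and 274 in MYB30-OE. It lay 23.3-fold higher in the mutant than in Col, and 9.20-fold higher in MYB30-OE than in Col, where it did not pass. It too met the level rule only through the altered lines.

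AT5TE49725 on chromosome 5 had the largest negative fold change, with 559 CPM in Col, 87.8 in the mutant and 644 in MYB30-OE. The mutant alone was low, 6.31-fold below Col, and the element met the level rule through Col and MYB30-OE. AT2TE09335 on chromosome 2 had 249.8 CPM in Col, 51.1 in the mutant and 1019 in MYB30-OE. It lay 4.83-fold lower in the mutant than in Col, and it also met the level rule through the other genotypes.

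In the overexpressor, set against the same Col libraries, 32 of the 722 elements passed, 16 higher and 16 lower. Over all 7744 elements with reads in the authors' deposited table, 0.826% passed, 0.478% higher and 0.349% lower, against 4.43% of the well expressed ones. Of the 32, 6 were at least 2-fold higher and 1 was at least 2-fold lower. Among the 654 elements at the level threshold in each genotype 27 passed, 11 higher and 16 lower, and 3 of them by at least 2-fold. The median log2 fold change was 0.02, with an interquartile range from -0.14 to 0.19 (width 0.34, against 0.51 for the mutant). By log2 CPM averaged over the 3 tables, 4 rose and none fell between 7 and 8. Between 8 and 10 there were 9 that rose and 5 that fell, and between 10 and 12 there were 2 that rose and 8 that fell. At 12 or more 1 rose and 3 fell. By level in the table of this comparison alone, over all elements with reads, the counts at both ends differed. There 3 rose and 2 fell between 7 and 8, and 1 rose and 10 fell between 10 and 12. At 12 or more 2 rose and 1 fell. The median average log2 CPM was 8.86 for the 16 that rose and 11.09 for the 16 that fell, a difference that was not tested.

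The largest positive fold change in MYB30-OE was again that of AT3TE58655, with an implied ratio of levels of 382 and a deposited log2 fold change of 8.34. This ratio rests on the same few Col reads, in an element that entered through its level in the altered lines. AT3TE51150, also on chromosome 3, had 43.1 CPM in Col, 728 in the mutant and 1044 in MYB30-OE. Both altered lines lay far above Col, MYB30-OE by 24.1-fold and the mutant by 16.7-fold, and the element met the level rule only through them. The comparisons of the mutant and of MYB30-OE use the same Col libraries, so a low value in those libraries enters both.

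AT5TE23185 on chromosome 5 had the largest fall in MYB30-OE, with 486 CPM in Col, 234 in the mutant and 201 in MYB30-OE. Col was the highest genotype, 2.41-fold above MYB30-OE (adjusted p = 3.66e-09) and 2.07-fold above the mutant (adjusted p = 0.0027). AT1TE56700 on chromosome 1 had 2502 CPM in Col, 2224 in the mutant and 1287 in MYB30-OE. MYB30-OE alone was low, 1.94-fold below Col (adjusted p = 0.0129), and myb30 against Col did not pass (log2 fold change -0.17).

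The direct comparison of MYB30-OE with myb30 gave the most calls. Of the 722 elements 185 passed, 77 higher and 108 lower in MYB30-OE than in the mutant. Over all 7695 elements with reads in the authors' deposited table, 4.24% passed, 2.12% higher and 2.12% lower, against 25.6% of the well expressed ones. Of the 185, 30 were at least 2-fold higher and 19 at least 2-fold lower. Among the 654 elements at the level threshold in each genotype 164 passed, 66 higher and 98 lower, and 35 of them by at least 2-fold. The median log2 fold change was -0.04, against 0.11 over all elements with reads. Between 10 and 12 in average log2 CPM, 15 rose and 38 fell, whereas at 12 or more 10 rose and 7 fell.

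AT2TE09335 had the largest positive fold change, 19.9-fold from the mutant to MYB30-OE (log2 fold change 4.32), with the mutant below the level threshold. It lay below Col in the mutant and above Col in MYB30-OE, where it was 4.09-fold higher than in Col (adjusted p = 1.88e-24). AT5TE49725 was 7.35-fold higher in MYB30-OE than in the mutant, which was likewise below the level threshold, and MYB30-OE against Col did not pass (log2 fold change 0.21). AT4TE69880 on chromosome 4 had the largest fall, with 208 CPM in Col, 534 in the mutant and 130.0 in MYB30-OE. The mutant was 4.08-fold above MYB30-OE (adjusted p = 2.64e-06) and 2.56-fold above Col (adjusted p = 0.0040). AT2TE26850 on chromosome 2 had 196, 366 and 99.8 CPM, and lay 3.63-fold lower in MYB30-OE, where it was below the level threshold, than in the mutant.

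**Figure D2:**
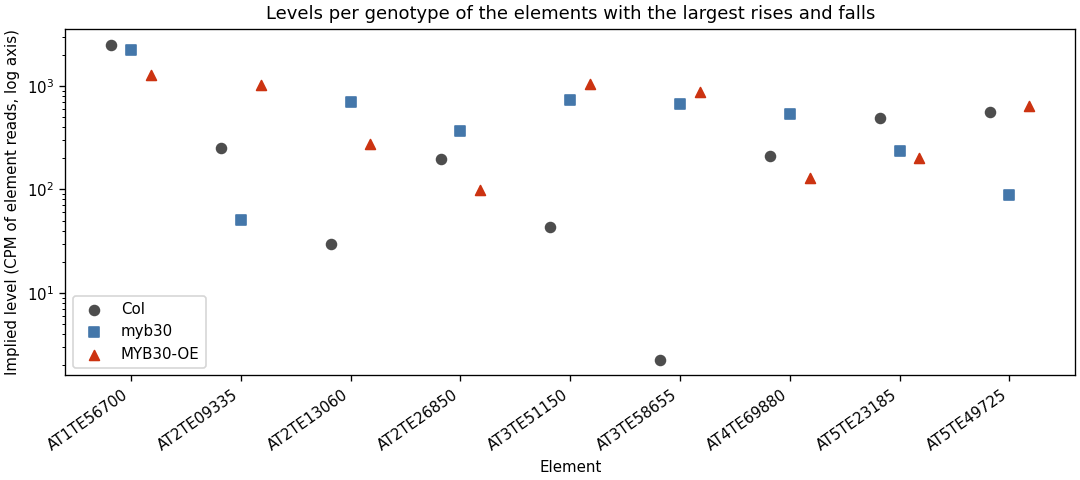
Points are implied levels in CPM of element reads, on a log axis, in Col, myb30 and MYB30-OE for the 9 elements with the 2 largest rises or falls in a comparison. No error bars are drawn because the deposited tables hold no values of single libraries. Col is far below both altered lines for AT3TE58655 (2.27 CPM) and AT3TE51150 (43.1 CPM), and the mutant is far below the other genotypes for AT5TE49725 (87.8 CPM) and AT2TE09335 (51.1 CPM).

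Every one of the 3 comparisons shares libraries with the other 2, so their values for the same elements are given side by side only. The 77 elements that were higher in MYB30-OE than in the mutant had a median log2 fold change of -0.54 in myb30 against Col and of 0.23 in MYB30-OE against Col. The 108 that were lower had medians of 0.49 and -0.15. Of the 722 elements, 207 passed in at least 1 comparison and 515 in none. The matching counts over all elements with reads are not given. Because the share that passed increased with level, as described below, the 207 are not a result about these elements.

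**Figure D3:**
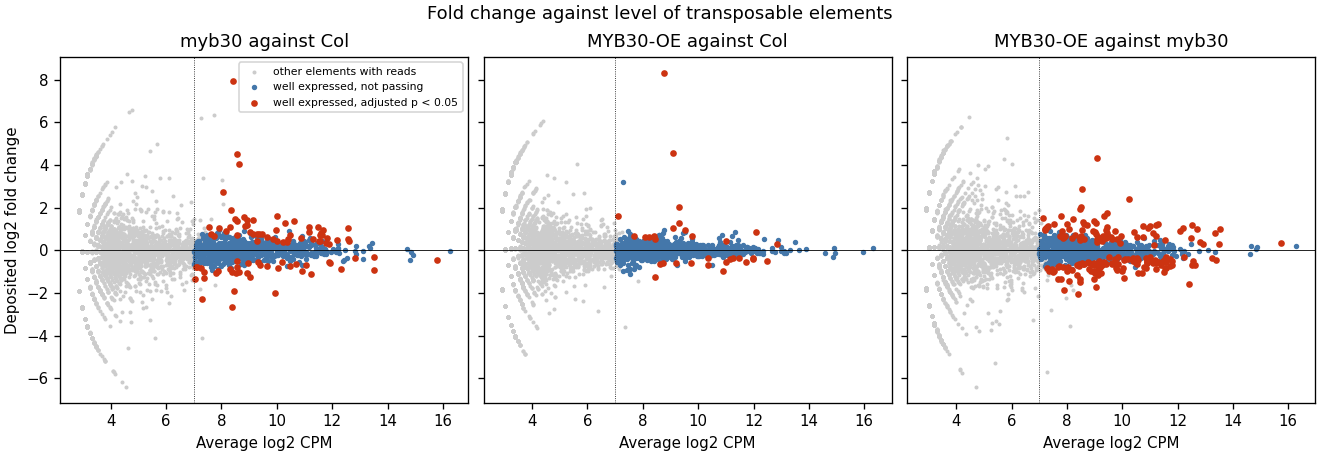
Each point is an element, placed by its average log2 CPM (horizontal axis) and deposited log2 fold change (vertical axis), with 1 panel per comparison and a dotted line at the level threshold of 7. Red points are well expressed elements that passed (92, 32 and 185 from left to right), blue points those that did not, and grey points right of the line reached the threshold in that table but not in all 3.

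The share of well expressed elements that passed increased with level in all 3 comparisons. For myb30 against Col it was 5.83% of the well expressed elements between 7 and 8 in average log2 CPM, 12.5% between 8 and 10, 19.05% between 10 and 12 and 30.3% at 12 or more. For MYB30-OE against Col the shares were 1.94%, 4.17%, 6.80% and 12.1%, and for MYB30-OE against myb30 14.1%, 25.6%, 36.1% and 51.5%. The size of the fold changes did not increase in step. The median absolute log2 fold change was 0.26, 0.27, 0.23 and 0.30 in the same 4 classes for myb30 against Col, 0.30, 0.33, 0.29 and 0.32 for MYB30-OE against myb30, and 0.23, 0.17, 0.14 and 0.12 for MYB30-OE against Col, where it was lower in each higher class. For myb30 against Col the smallest fold change that passed fell with level, from 1.62-fold between 7 and 8 to 1.23-fold at 12 or more. For MYB30-OE against Col it went from 1.52-fold to 1.23-fold, and for MYB30-OE against myb30 it was 1.49-fold, 1.25-fold, 1.18-fold and 1.23-fold. Differences smaller than these did not pass at this depth, which does not show that they were absent.

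**Figure D4:**
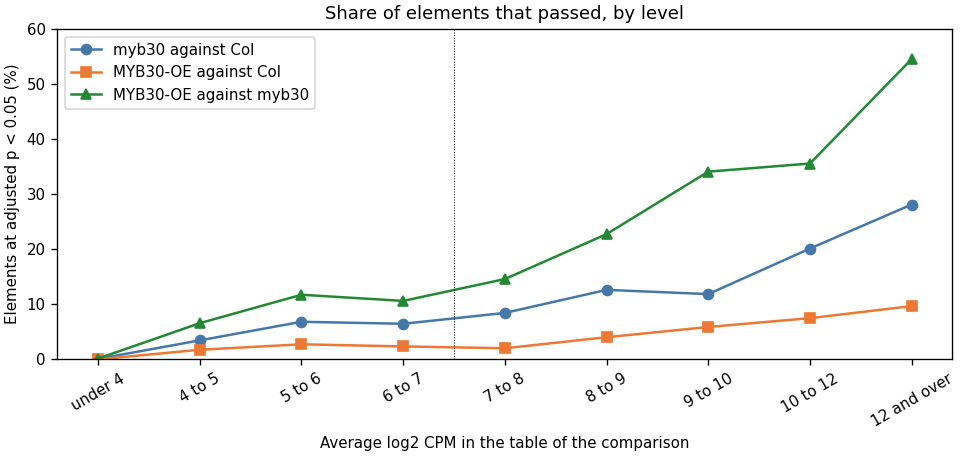
Lines show the percentage of elements with reads that passed an adjusted p of 0.05, by class of average log2 CPM in the table of each comparison, with a dotted line at the threshold of 7. The share is highest in the top class in every comparison, at 54.5% of the elements at 12 or more for MYB30-OE against myb30.

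Elements that passed were found on all 5 chromosomes in every comparison. For myb30 against Col, 15.2% of the well expressed elements of chromosome 1 passed (27 of 178), 14.3% on chromosome 2 (15 of 105), 10.3% on chromosome 3 (16 of 156), 12.6% on chromosome 4 (12 of 95) and 11.7% on chromosome 5 (22 of 188). Chromosome 5 had 15 that rose and 7 that fell, and chromosome 3 had 8 of each. Over all elements with reads the same shares ran from 1.96% on chromosome 5 to 2.54% on chromosome 1.

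For MYB30-OE against Col, chromosome 2 had 9 elements that passed, 4 higher and 5 lower, which was 8.57% of its well expressed elements. The other chromosomes had 5 to 7, or 3.19% to 5.26%. Over all elements with reads chromosome 2 also had the highest share, 1.29% against 0.567% to 0.871% on the others. For MYB30-OE against myb30, the shares ran from 21.2% on chromosome 3 (33 of 156) to 30.5% on chromosome 2 (32 of 105). Over all elements with reads the order was different, with the lowest share on chromosome 2 (3.90%, against 4.11% to 4.49% on the others). Elements that fell were more numerous than those that rose on each chromosome in that comparison, from 17 against 16 on chromosome 3 to 20 against 12 on chromosome 2. The medians of the log2 fold change by chromosome lay between -0.03 and 0.06 for myb30 against Col, between -0.01 and 0.07 for MYB30-OE against Col and between -0.06 and 0.07 for MYB30-OE against myb30. Differences between chromosomes were not tested.

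**Figure D5:**
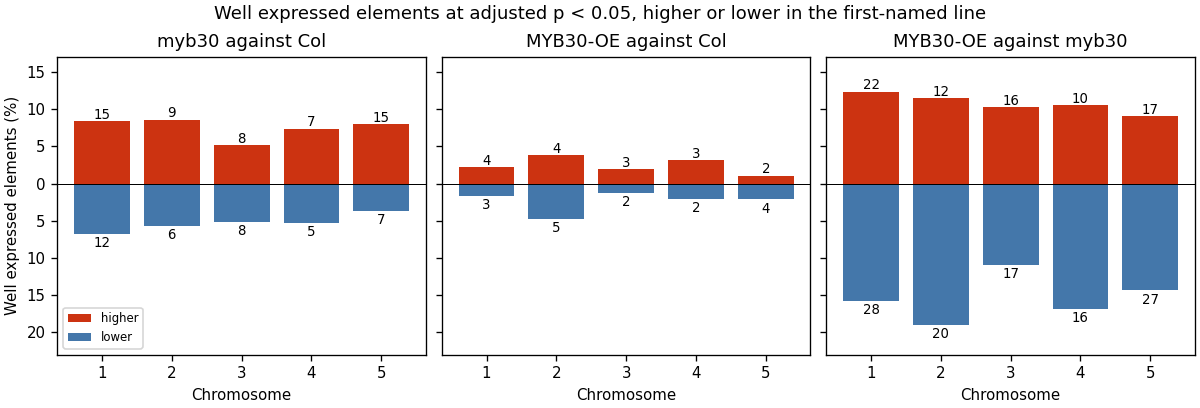
Bars give the percentage of well expressed elements of each chromosome that passed an adjusted p of 0.05, upwards for higher and downwards for lower in the line named first, and the number at each bar is the count. Chromosome 2 has the tallest bars in both directions for MYB30-OE against Col (4 higher and 5 lower).

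The summed reads of a chromosome's well expressed elements were also set side by side by genotype. Chromosome 5 held 17.1% of element reads in Col, 18.7% in the mutant and 16.8% in MYB30-OE. Chromosome 2 held 25.7%, 24.2% and 25.3%, with AT2TE18115 as its largest contributor. Chromosome 1 held 15.6%, 15.8% and 16.3%. No test of these sums was possible without values of single libraries.

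Of the 722 well expressed elements, which were 2.31% of those listed, 591 had no well expressed neighbour in identifier order. The other 131 formed 60 runs of 2 to 4, which hold 71 pairs of direct neighbours. The number of pairs to be expected at that share is not given, so neither scatter nor clustering is read from these counts. The median absolute difference in log2 fold change within the 71 pairs was 0.24 for myb30 against Col, 0.17 for MYB30-OE against Col and 0.29 for MYB30-OE against myb30. Over all possible pairs of the 722 elements it was 0.40, 0.26 and 0.47. Both neighbours passed in 5 pairs for myb30 against Col, in 0 pairs for MYB30-OE against Col and in 7 pairs for MYB30-OE against myb30, and in each of those 5 and 7 pairs both had the same direction. Pairs in which only 1 neighbour passed were more numerous, with 12, 3 and 27. Neighbours may share reads or a transcript, which was not tested, so they are not independent observations.

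Genes that keep transposable elements silent were looked at in the same libraries. The list of 41 genes covers DNA methyltransferases and their partners, histone methyltransferases, the polymerases and proteins of RNA-directed DNA methylation, post-transcriptional silencing, and the demethylases that work against them. Over all 25713 genes with reads in the deposited mutant table, 21.5% passed (10.8% higher and 10.7% lower), and of the 41 genes 3 did, 2 higher and 1 lower. VIM2, which acts in the maintenance of CG methylation, was 1.68-fold higher in the mutant (adjusted p = 0.0033). DDM1, a chromatin remodeller needed for methylation of heterochromatin, was 1.27-fold higher (adjusted p = 0.0477), and SUVH6, a histone H3 lysine methyltransferase, was 1.47-fold lower (adjusted p = 0.0109). VIM2 has close relatives in the genome, so the division of its reads is uncertain.

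In MYB30-OE against Col none of the 41 genes passed after Benjamini-Hochberg adjustment of the deposited p-values, against 11.5% of all genes (5.99% higher and 5.49% lower), and 3 had an unadjusted p under 0.05. Their log2 fold changes lay between -0.48 and 0.31, and the smallest adjusted p was 0.11. In MYB30-OE against myb30, 3 rose and 4 fell, where 31.6% of all genes passed (15.4% higher and 16.2% lower). SUVH6 was 1.63-fold higher in MYB30-OE (adjusted p = 6.84e-04), while VIM2 was 1.92-fold lower (adjusted p = 1.83e-04), DDM1 1.5-fold lower (adjusted p = 2.25e-04) and ATXR6, a histone H3 methyltransferase that limits heterochromatin replication, 1.46-fold lower (adjusted p = 0.0254). The median log2 fold change of the list was 0.05 in myb30 against Col, 0.01 in MYB30-OE against Col and -0.03 between the lines, against 0.01, 0.00 and -0.03 over all genes with reads. Any relation between these genes and the elements was not tested.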

How the data were processed

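RNA was sequenced from whole seedlings, with 3 libraries per genotype. Per the submitters' processing notes, TopHat, Cuffdiff and Cufflinks were used with TAIR10. The sources used here do not say which step counted reads on elements. Per the file headers, the authors deposited log2 fold changes, log2 average levels in CPM and p-values, under the column names of edgeR's exact test. File names were matched to genotypes by the description field of each sample.

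Elements without reads share the lowest average log2 CPM of a table and were left out. Deposited p-values were adjusted by the Benjamini-Hochberg method over the remaining elements (threshold 0.05), and likewise for genes. Mean library size was implied by that lowest value, assuming 2 reads added per library. Levels per genotype (CPM and reads) were then solved from average level and fold change with 0.125 added reads, and are approximations. Each genotype's level is the mean of its 2 tables, whose median ratio was 1.01 in Col, 1.01 in the mutant and 0.994 in MYB30-OE over the 722 elements. Log2 fold changes of the 3 tables closed within 0.021 for every one of them.

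The elements, lists and rules were chosen with earlier results of these data known. The elements named are, per comparison, the 2 largest rises and falls among those that passed, the highest of each chromosome, and the nearest on each side of the level threshold. Others are not printed, since the files pair no name with an identifier. Silencing genes named are up to 4 that passed with the largest changes. Symbols came from the TAIR10.1 gene table, where all 41 matched. Adjustment and level recovery were run on simulated counts built with the same added reads and a single library size, which checks the arithmetic only. That run cannot show that the deposited values were made with those settings. Its counts also had no spread between libraries beyond counting error. Python 3.11.15, pandas 2.3.3, SciPy 1.17.1 and matplotlib 3.10.9 were used.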

Additional observations from a re-analysis of the deposited data

Results flagged for a closer look

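In AT2TE09335 the 2 altered lines lay on opposite sides of Col. Its deposited log2 fold change was -2.27 in myb30 against Col, 2.03 in MYB30-OE against Col and 4.32 in MYB30-OE against myb30. It is 1 of 6 well expressed elements with opposite signs against Col that passed in all 3 comparisons, which share libraries, and it is the one named by rule. The matching count over all elements with reads is not given. Since the share that passed increased with level, the 6 are not a result about well expressed elements. The mutant level of AT2TE09335 was below the level threshold.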

How the results depend on the processing

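The number of well expressed elements that passed depended on the adjustment. For myb30 against Col it was 92, and 40 with Bonferroni adjustment, 35 with a minimum of 2-fold, 150 with adjustment over elements at an average log2 CPM of 5 or more and 165 at 7 or more. For MYB30-OE against Col it was 32, and 20 at an adjusted p of 0.01, 15 with Bonferroni, 7 with 2-fold, 20 with every row adjusted together, 60 at 5 or more and 62 at 7 or more. For MYB30-OE against myb30 it was 185, and 89 with Bonferroni and 49 with 2-fold. The adjustments at 5 and 7 test fewer elements; the one at 7 was chosen after seeing the data. Level thresholds of 6 and 8 gave 998 and 489 elements, with 95.9% and 88.7% of element reads (also chosen after seeing the data), and kept the counts that passed within 1.5 times. So did a level of 7 in each genotype, added after seeing the data, although the MYB30-OE against Col count of at least 2-fold then went from 7 to 3. The shares over all elements with reads are not given at these settings. The counts therefore show only how far they depend on the setting.

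The median log2 fold change of the 722 elements was near 0 and its sign depended on the scaling in both comparisons with Col. In myb30 against Col it was -0.0035 when rescaled to implied gene reads. In MYB30-OE against Col it was -0.014 when centred on all elements with reads, while in MYB30-OE against myb30 it stayed negative, at -0.14 when centred, which moved all values by -0.11. No element that passed changed direction under either scaling, and none could have. The largest shift was -0.11, and the smallest absolute log2 fold change that passed in any comparison was 0.24. The unchanged directions are therefore not a result. At an adjusted p of 0.01, 1 silencing gene passed in myb30 against Col and 3 in MYB30-OE against myb30. The share of all genes that passed at 0.01 is not given. The silencing gene counts at 0.01 therefore show only how far they depend on the threshold.

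No paired analysis was possible because the deposited tables hold no values of single libraries. Leaving out a replicate was not run for the same reason.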
